A study of Mus musculus with 2116 samples.

Results

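Igfbp4, Dapl1, Pdlim4, Arhgap29, Lypd6b, Nme4, Tdrp, Sgk1 and Nacc2 are 9 of the 23725 genes in a single-cell count table of mouse spleen CD4+ T cells. They were selected on their ratio of UMIs between the sorted populations of this same table, as nearly restricted to conventional T cells, so their levels in the 2 sorted populations are a description and carry no test. Regulatory T cells (Treg, 816 cells) and conventional T cells (Tconv, 1300 cells) were sorted from spleens of male mice of strain B6 Foxp3-Ires-Gfp, aged 8 months, in which green fluorescent protein (GFP) is made together with Foxp3. The labels assign Treg as Foxp3-positive and Tconv as Foxp3-negative, while the sort description names DAPI-, TCRb+, CD4+, GFP+ cells for both. Each population is 1 inDrops library, a droplet method that tags each captured mRNA with a molecular identifier (UMI), and no animals are named.

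Conventional CD4+ T cells include naive cells that circulate between lymphoid organs and antigen-experienced effector and memory cells. Treg restrain immune responses under the control of the transcription factor Foxp3. Naive cells keep up Ccr7, Il7r, Lef1 and Tcf7, whereas effector and memory cells make more S100 proteins, integrins and Cd44.

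The Treg library held 1468203 UMIs, with a median of 1688.5 per cell, and the Tconv library 2002752, with a median of 1510.5. Foxp3 stood at 380.1 UMIs per 1000000 (CPM) in Treg and 2.996 CPM in Tconv, the direction the labels give, and Cd4 at 501.97 CPM in Treg and 703.03 CPM in Tconv. Cells with at least 3 UMIs of a list for B, plasma, myeloid, erythroid, CD8 or NK, plasmacytoid dendritic cells or platelets numbered 63 of the Treg cells (7.72%) and 33 of the Tconv cells (2.54%). The libraries shared 12 cell barcodes, which carried 0 UMIs of the 9 genes in Treg and 25 in Tconv. All intervals given are at 95% and cover counting error of these libraries only. UMIs were clumped within cells, with a median Fano factor (variance over mean) of 2.47 in Treg and 1.64 in Tconv over genes with at least 100 UMIs, so the intervals, which assume independent UMIs, are too narrow.

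The stretches of 250 bases before the transcription start are shown for Igfbp4 and Dapl1, the genes with the most UMIs, and Pdlim4, whose ratio was among the lowest, since they were low together in Treg. They were taken from RefSeq (GRCm38.p6), and capitals mark a forkhead motif.
Igfbp4 (chr11:99040994-99041243, plus strand): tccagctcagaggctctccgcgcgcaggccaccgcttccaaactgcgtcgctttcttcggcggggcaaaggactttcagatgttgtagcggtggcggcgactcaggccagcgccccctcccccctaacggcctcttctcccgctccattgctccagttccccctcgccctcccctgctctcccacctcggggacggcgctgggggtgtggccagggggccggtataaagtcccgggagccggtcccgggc
Dapl1 (chr2:59484403-59484652, plus strand): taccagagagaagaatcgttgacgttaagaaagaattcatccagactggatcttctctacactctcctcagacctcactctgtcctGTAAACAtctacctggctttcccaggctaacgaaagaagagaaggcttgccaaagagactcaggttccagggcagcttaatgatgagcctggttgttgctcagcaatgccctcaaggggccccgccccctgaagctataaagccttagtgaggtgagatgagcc
Pdlim4 (chr11:54069018-54069267, minus strand): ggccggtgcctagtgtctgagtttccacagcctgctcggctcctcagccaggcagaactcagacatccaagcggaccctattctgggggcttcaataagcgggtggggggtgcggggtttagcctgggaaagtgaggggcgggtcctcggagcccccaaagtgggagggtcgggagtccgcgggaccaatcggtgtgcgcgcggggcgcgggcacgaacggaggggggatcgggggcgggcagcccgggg
The Igfbp4 and Pdlim4 windows were GC-rich, at 69.2% each, and the Dapl1 window held 50% G and C. The forkhead motif GTAAACA was in the Dapl1 window. Windows were found for 7 of the 9 genes, 14 windows in all, and Lypd6b and Tdrp were not matched. On either strand, GTAAACA was in 1 of the 14 windows and in 3.17% of all 32851 windows of the same length. The TCF/LEF motif CTTTGA was in windows of Sgk1 and in 13.8% of all windows, the RUNX motif TGTGGT in windows of Arhgap29 and Sgk1 and in 14.05%, and the ETS motif CGGAAG in windows of Nacc2 and Sgk1 and in 13.6%. Each motif was counted in its own right, and a match is a run of letters and not a site.

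The 9 genes together stood at 145.1 CPM in Treg and 1354 CPM in Tconv. That is 9.33-fold lower in Treg, a log2 ratio of Treg over Tconv of -3.22 (-3.43 to -3.02). Without Igfbp4, the other 8 stood at 57.2 CPM in Treg and 602.2 CPM in Tconv, and the log2 ratio was -3.40 (-3.73 to -3.08). All 9 of 9 were at least 4-fold lower in Treg, in the contrast on which they were chosen and from which nothing more is read, against 63 of 8988 genes with at least 20 UMIs (0.701%), whose median log2 ratio was 0.14. In bulk sums of this kind, fewer cells with a transcript and less of it per cell cannot be told apart, so the numbers of carrying cells follow each level.

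Secreted and surface proteins are encoded by Igfbp4 and Lypd6b. Igfbp4 (chromosome 11, 99041244 to 99054392, plus strand, GRCm38) encodes a secreted protein that binds insulin-like growth factors. Igfbp4 stood at 87.9 CPM in Treg and 751.5 CPM in Tconv, and its log2 ratio was -3.10 (-3.37 to -2.84). Igfbp4 was found in 52 of 816 Treg cells (6.37%) and in 560 of 1300 Tconv cells (43.1%). Lypd6b (chromosome 2, 49787688 to 49948849, plus strand) encodes a membrane-anchored protein of the Ly6 family. Lypd6b had 1 UMI in 1 Treg cell and 44 UMIs in 42 Tconv cells, which gives -5.01 (-10.3 to -2.46) on the log2 scale, an interval made wide by the single Treg molecule.

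Sgk1 (chromosome 10, 21882184 to 21999903, plus strand) encodes a serum- and glucocorticoid-regulated kinase that acts downstream of PI3K and mTORC2 and phosphorylates Foxo proteins. Sgk1 was found in 15 Treg cells (1.84%) and in 10.1% of Tconv cells. Its level was 13.6 CPM in Treg and 116.8 CPM in Tconv, and the log2 ratio -3.10 (-3.84 to -2.44). Nme4 (chromosome 17, 26091734 to 26095602, minus strand) encodes a mitochondrial nucleoside diphosphate kinase. Nme4 had 1 UMI in 1 Treg cell and 42 UMIs in 32 Tconv cells, which gives -4.94 (-10.3 to -2.39) on the log2 scale.

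Pdlim4 (chromosome 11, 54054928 to 54069014, minus strand) encodes a PDZ and LIM domain protein of the actin cytoskeleton. Pdlim4 was found in 4 Treg cells, with 1 UMI each, and in 9.77% of Tconv cells. Its level was 2.72 CPM in Treg and 83.4 CPM in Tconv, and the log2 ratio -4.94 (-6.83 to -3.55). Arhgap29 (chromosome 3, 121952541 to 122016753, plus strand) encodes a GTPase-activating protein that acts downstream of Rap1. Arhgap29 had 0 UMIs in Treg and 50 UMIs in 26 Tconv cells. Set against a floor of 3 counts over the Treg library, it was at least 12.2-fold lower in Treg, and 0 of 816 cells allows a carrying share of up to 0.368%, taken here and below as 3 counts of the cells (the exact interval reaches 0.451%).

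Nacc2, Dapl1 and Tdrp encode regulators that act inside the cell or are little described in T cells. Nacc2 (chromosome 2, 26055535 to 26123220, minus strand) is a BTB domain repressor that recruits the NuRD complex, and it was found in 6 Treg and 75 Tconv cells. Nacc2 stood at 5.45 CPM in Treg and 55.4 CPM in Tconv, with a log2 ratio of -3.35 (-4.59 to -2.32). Dapl1 (chromosome 2, 59484653 to 59505020, plus strand) is a small relative of the death-associated protein Dap. Dapl1 was found in 16 Treg cells (1.96%) and in 20.1% of Tconv cells. Its level was 24.5 CPM in Treg and 224.7 CPM in Tconv, and the log2 ratio -3.20 (-3.73 to -2.70). Tdrp (chromosome 8, 13952008 to 13975032, minus strand), known from testis development, was found in 11 Treg and 84 Tconv cells, at 9.54 CPM in Treg and 53.9 CPM in Tconv. Its log2 ratio of -2.50 (-3.42 to -1.69) was the smallest in size of the 9. Genes on the opposite strand overlap Lypd6b and Nacc2 and are not in the table.

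**Figure D1:**
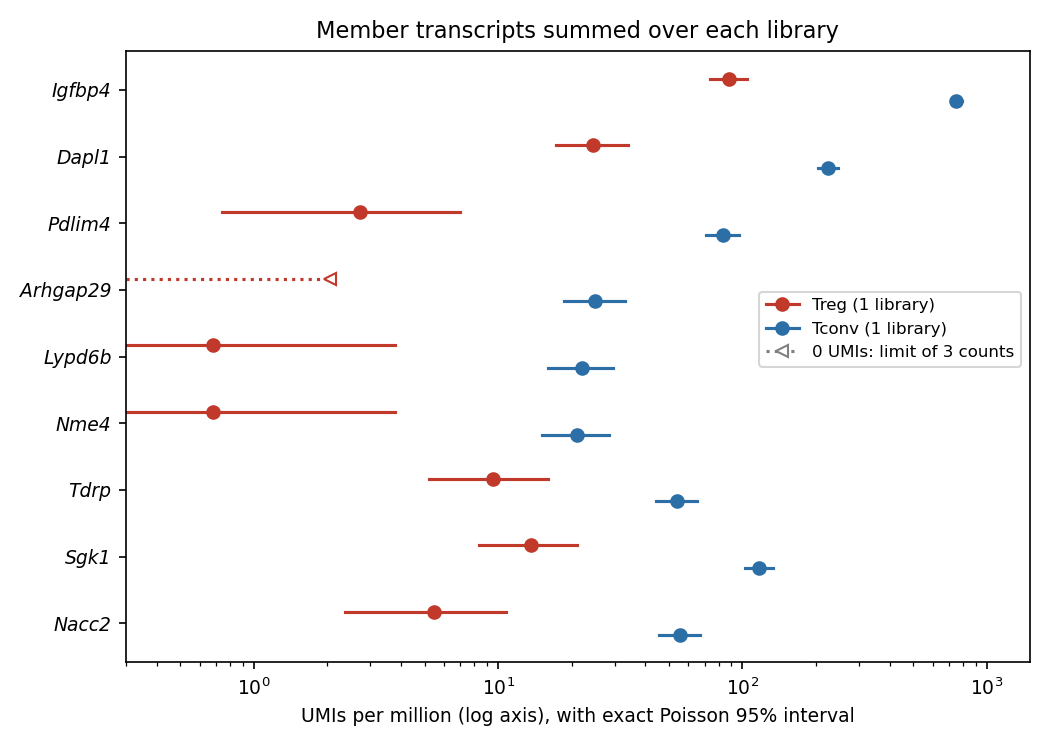
UMIs per 1000000 (CPM) of each of the 9 genes, summed over the 816 Treg cells (red) and the 1300 Tconv cells (blue) on a log axis, with exact Poisson 95% intervals. No interval of Treg meets the Tconv interval of the same gene, and Arhgap29, at 0 UMIs in Treg, is drawn as the limit of 3 counts.

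Ordered by UMIs in Tconv, Igfbp4 came first, followed by Dapl1, Sgk1, Pdlim4, Nacc2, Tdrp, Arhgap29, Lypd6b and Nme4. UMIs count molecules captured at their tails and are not divided by length. The Poisson intervals of Nacc2 and Tdrp overlapped in Tconv, as did those of Arhgap29, Lypd6b and Nme4, so the order within those sets is not resolved by counting error.

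The share of carrying cells belongs to the contrast on which the genes were chosen, and the UMIs in a carrying cell cannot be under 1, so both are given as a description. A UMI of any of the 9 was found in 88 of 816 Treg cells (10.8%, exact interval 8.74% to 13.1%) and 65.1% of 1300 Tconv cells (62.4% to 67.7%). After thinning every cell to 1000 UMIs, the shares were 60 of 738 Treg cells (8.13%) and 60.02% of the Tconv cells. In a carrying cell, the 9 genes together averaged 2.42 UMIs in Treg and 3.20 in Tconv. Igfbp4 averaged 2.48 UMIs in Treg and 2.69 in Tconv. The same average was 2.25 in Treg and 1.72 in Tconv for Dapl1, and 1.33 in Treg and 1.79 in Tconv for Sgk1. Of the thinned Treg cells, 48 held 1 distinct gene of the 9, 11 held 2 and 1 held 3. Of the thinned Tconv cells, 39.1% held 1, 17.8% held 2, and 32 and 3 cells held 3 and 4.

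Among cells with at least 10 UMIs of another cell type's list, 2 of 20 in Treg (10%, 1.23% to 31.7%, median 1832.5 UMIs) and 4 of 13 in Tconv (30.8%, 9.09% to 61.4%, median 1850) had a UMI of the 9. The Treg share of 10.8% lay within the interval of these other cells, which is too wide, with 20 cells, to place that share. Both of the 2 Treg cells were among the 4 cells with at least 10 myeloid UMIs, whose median depth was 4860 UMIs. Whether the Treg share is background RNA was not tested. The Tconv interval lay above that of its other cells. Between classes of Treg cells the share differed, and it was 15.8% (9.12% to 24.7%) with 0 signature UMIs and 4.55% (2.29% to 7.99%) with at least 6.

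The 9 genes differed in how clumped they were within Tconv cells. At least 2 UMIs were held by 57.1% of the cells with Igfbp4, 44.3% with Sgk1, 46.2% with Arhgap29 and 41.4% with Dapl1. Pdlim4 stood at 25.2%, Tdrp at 22.6%, Nacc2 at 21.3%, Nme4 at 18.75% and Lypd6b at 2.38%. The median of 2909 genes with at least 100 UMIs was 25.2%, a minimum that Arhgap29, Lypd6b and Nme4 did not reach. Genes of other levels make up that median. Igfbp4 reached 19 UMIs in a cell, and its Fano factor was 3.78 in Tconv. With 50 UMIs in all, Arhgap29 had a Fano factor of 2.76, and Pdlim4 had 1.46.

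Whether the genes mark the same Tconv cells was read from their co-detection in thinned cells. Igfbp4 was found in 48.5% (40.7% to 56.3%) of cells with Dapl1 and in 36.7% (33.6% to 39.8%) of cells without it. Cells with any of the other 8 held Igfbp4 in 44.2% (39.4% to 49.01%), and cells without in 34.9% (31.3% to 38.6%). Both separations depended on the thinning draw. With another draw at the same depth, Igfbp4 was in 43.4% (35.7% to 51.3%) of cells with Dapl1 and 36.1% (33.02% to 39.3%) without, and in 39.95% (35.2% to 44.9%) of cells with any of the other 8 and 35.6% (32.02% to 39.2%) without, all within overlapping intervals. The Dapl1 intervals also overlapped with cells thinned to 500 or 1500 UMIs. Igfbp4 was found in 45.8% of cells with Pdlim4 and 37.9% without, where the intervals overlapped. For Tdrp the values ran the other way, at 28% of cells with it and 38.9% without, also within overlapping intervals. Dapl1 was in 0 of 27 cells with Lypd6b, which allows a share of up to 11.1%, and in 15.4% of cells without it. Over 64 ordered pairs with at least 20 cells, the share was higher with the second gene in 31, and the intervals were apart in 3, against 0 of 64 with the other draw. Of those 3, 2 were Igfbp4 and Dapl1 read both ways, with a higher share. The other 1 was Dapl1 by Lypd6b, with a lower share. The same counts over pairs of all genes were not computed. Pairs share cells and counts, so these numbers are a description.

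**Figure D2:**
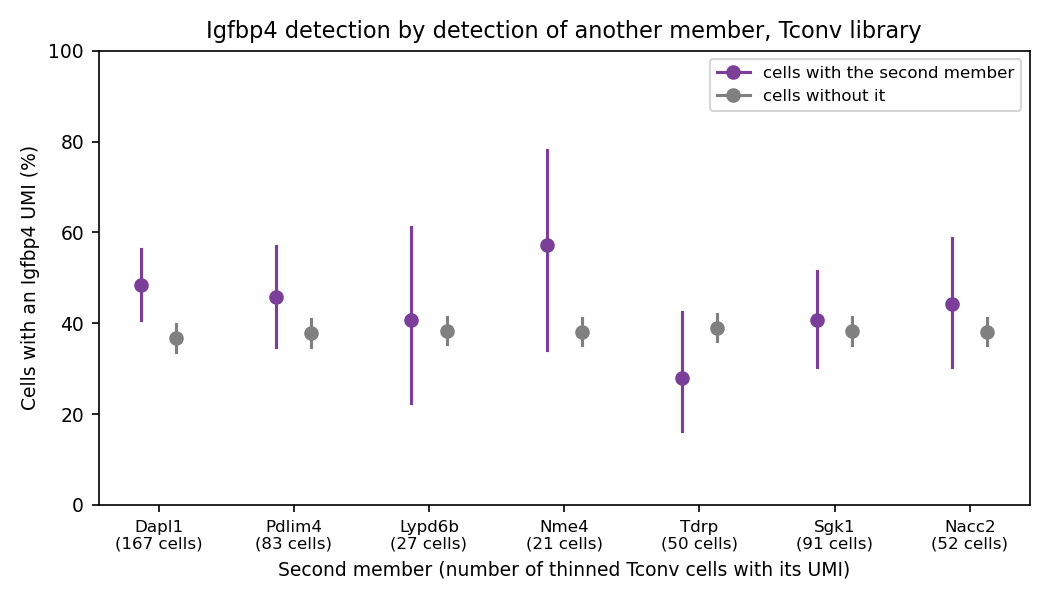
Percentage of thinned Tconv cells with an Igfbp4 UMI, among cells with (purple) and without (grey) a UMI of each other gene of the 9 that was found in at least 20 cells; lines are exact Clopper-Pearson 95% intervals. The intervals are apart only for Dapl1, at 48.5% with and 36.7% without, and with another thinning draw they overlap, at 43.4% and 36.1%.

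Effector genes of the Tconv cells were compared with the 9 genes. The 9 were selected on the ratio between the sorted populations and not on effector genes. Both they and the gene lists were chosen with earlier results of these data known, so the comparison is a description. Cells were put into classes by UMIs of 22 effector and memory genes after thinning. With 0, 1 to 2, 3 to 5 and at least 6 such UMIs (the last of 66 cells), the 9 genes together stood at 1242, 1454, 1674 and 561 CPM. The share of cells carrying at least 1 of them was 57.4%, 62.4%, 65.7% and 31.8% over the same classes. The log2 ratio of the class with at least 6 over the class with 0 was -1.15 (-1.68 to -0.66), and for Igfbp4 -1.21 (-1.95 to -0.54), Dapl1 -2.15 (-4.47 to -0.53) and Sgk1 -2.88 (-8.23 to -0.30). For Tdrp it was 0.16 (-1.89 to 1.81), for Nacc2 0.69 (-1.15 to 2.27) and for Arhgap29 1.48 (-2.10 to 4.61). The top class held only 3 UMIs of Dapl1 and 1 of Sgk1. With another thinning draw the ratios of Dapl1 and Sgk1 each changed by over 1.5 times. The lower level of the 9 genes together was seen in the top class, while the middle classes lay above the class with 0. With at least 4 against 0 effector UMIs the ratio was -0.07, so it depends on where the limit is drawn, and Igfbp4 alone turned to 0.045. With thinning to 1500 UMIs the ratio was -0.04 (-0.37 to 0.29), with Igfbp4 at 0.13 (-0.28 to 0.53) and Sgk1 at 0.55 (-0.73 to 1.85). The limits of 0 and at least 6 UMIs were kept at that depth, so the top class takes in cells with a lower effector share. The cells and the draw also change, so this is no separate check of depth. In Treg the same ratio was -1.20 (-2.51 to -0.01).

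The effector list was not uniform gene by gene. The share of Tconv cells with a UMI of the 9 was 16% (4.54% to 36.1%) in the 25 cells with S100a6, a calcium-binding protein of activated T cells, and 61.03% in cells without it. It was 38.5% in cells with the integrin Itgb1 and 61.4% without, 35.9% with Ahnak and 60.9% without, 30.4% with the transcription factor Maf and 60.6% without, and 42.9% with the costimulator Icos and 60.8% without. Crip1, a LIM protein, went the other way, with 66.8% (62.1% to 71.3%) of its cells carrying and 55.8% (52.02% to 59.6%) of cells without it. Of 12 effector genes with at least 20 cells, 8 had a lower share with than without the gene, 6 of them with intervals apart, and 1 had a higher share with intervals apart. Over all 5626 genes found in at least 20 cells and missing from at least 20, 55.7% had a lower share with the gene, 1.19% were lower with intervals apart and 0.533% higher with intervals apart. With another draw, 4 effector genes were lower with intervals apart, and Icos was not among them, at 47.7% with and 59.8% without. Leaving out cells of other types also left 4, without S100a11 and Icos. S100a6 and Itgb1 were apart with another draw and at 500 and 1500 UMIs, while Crip1 overlapped at both of these depths. The naive genes showed no such split. Satb1, a chromatin organiser, had 60.9% with and 59.3% without. S1pr1, the egress receptor, had 61.4% with and 59.5% without, and Foxo1, a transcription factor of naive T cells, 62.4% with and 58.9% without. Of 15 naive genes, 11 had a higher and 4 a lower share, and no intervals were apart, while 44.3% of all genes had a higher share.

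By classes of naive UMIs (0 to 2, 3 to 4, 5 to 6 and at least 7), the 9 genes stood at 1210.5, 1657, 1309 and 1360 CPM in Tconv. The ratio of the highest over the lowest class was 0.17 (-0.05 to 0.39) and for Igfbp4 alone 0.31 (-0.002 to 0.64). With thinning to 1500 UMIs and the same class limits the first of these was 0.52. In Treg the classes held 81.2, 229.1, 169.6 and 165.5 CPM, and the highest over the lowest was 1.03 (0.14 to 1.90), with Igfbp4 at 2.05 (0.73 to 3.50). Without Igfbp4 that ratio in Treg was 0.06 (-1.36 to 1.35), so the higher value was seen for Igfbp4 and not for the others together.

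**Figure D3:**
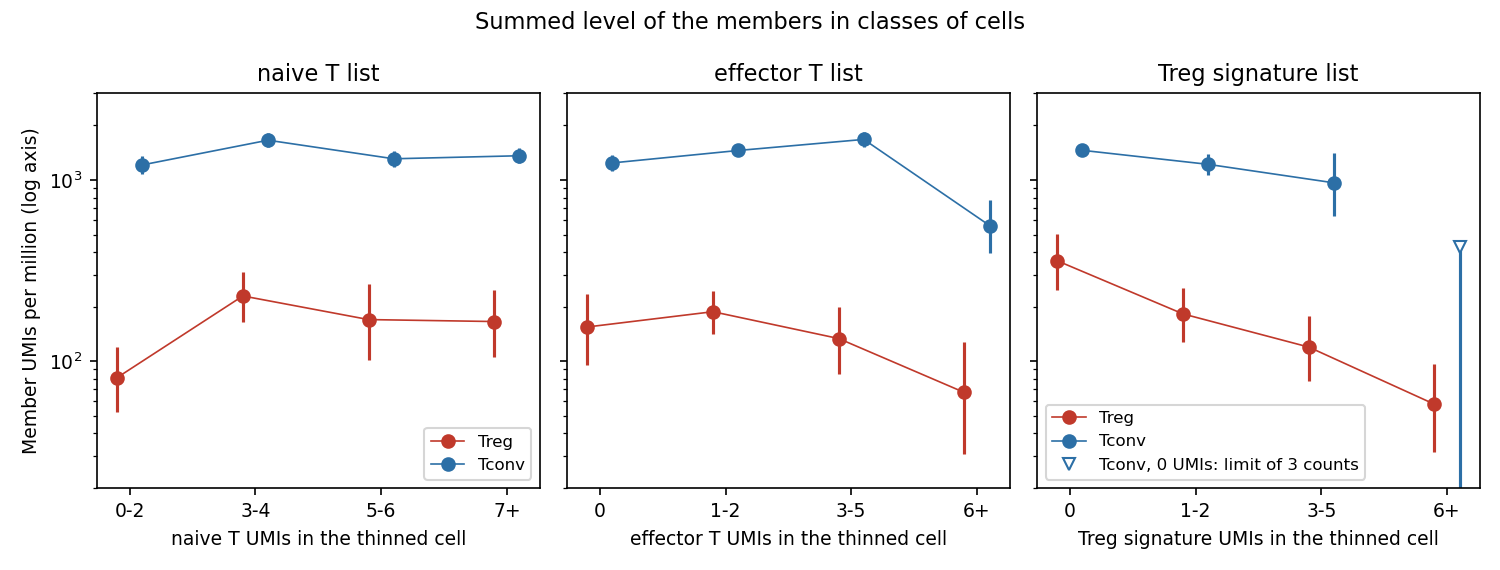
Summed level of the 9 genes, in UMIs per 1000000 on a log axis, in classes of thinned cells by their UMIs of naive, effector and Treg signature genes, for Treg (red) and Tconv (blue), with exact Poisson 95% intervals. Tconv lies above Treg in the classes with UMIs, the top effector class falls to 561 CPM in Tconv, and Treg falls from class to class of signature UMIs to 57.9 CPM; the Tconv class with at least 6 signature UMIs, of 7 cells with 0 UMIs, is drawn as a limit of 3 counts.

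**Figure D4:**
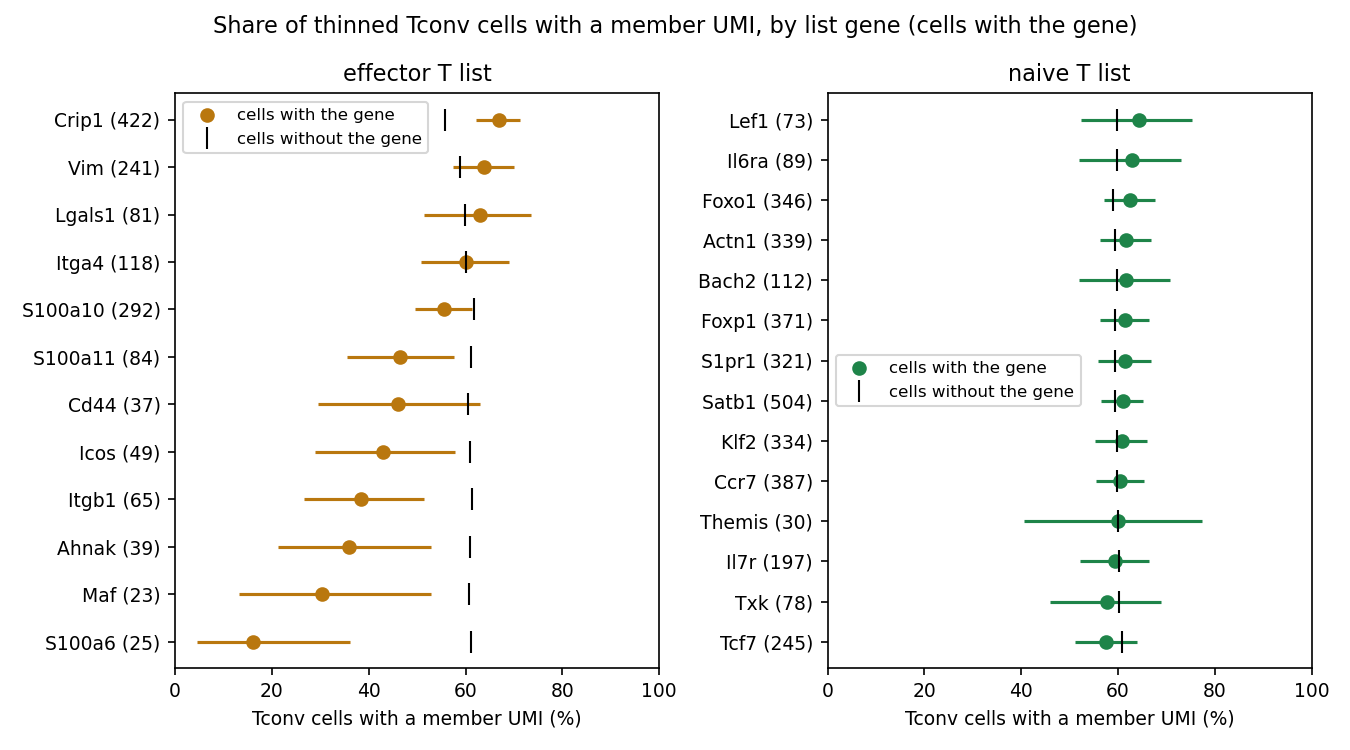
Percentage of thinned Tconv cells with a UMI of any of the 9 genes, among cells with an effector gene (orange) or a naive gene (green), with exact Clopper-Pearson 95% intervals, and among cells without it (black bar), for genes found in at least 20 thinned cells; the number of cells with the gene is in brackets. Among the genes drawn, S100a6 is lowest at 16% and Crip1 highest at 66.8%, and the naive genes lie near their bars.

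Over all genes with at least 50 UMIs in thinned Tconv cells (3187, the 9 left out), 4.17% were at least 1.5-fold higher and 6.9% at least 1.5-fold lower in cells with a UMI of the 9 than in cells without. The genes with the most certain higher values were Klhdc2, a substrate receptor for ubiquitin ligases, at a log2 ratio, cells with over cells without, of 1.22 (0.58 to 1.91), Cops8 at 1.44 (0.58 to 2.40), Dcaf13 at 1.55, Synj2bp at 1.05, Zcchc11 at 1.30 and the tetraspanin Cd9 at 1.05. With another thinning draw Cops8 was at 0.49 and Cd9 at 0.29, and Synj2bp was at 0.15 with cells thinned to 500 UMIs. The lower genes were S100a6 at -3.31 (-4.59 to -2.23), Itgb1 at -1.72 (-2.30 to -1.16), Id2, an inhibitor of DNA binding that is high in effector cells, at -1.73 (-2.28 to -1.19), and Cd74 at -2.52. Lyz1 was at -5.73, and Jchain at -7.48 with all but 1 of its UMIs in 1 cell. Cd74, Lyz1 and Jchain are markers of B, myeloid and plasma cells. In Tconv the B cell list stood at 64.7 CPM in cells with and 345.4 CPM in cells without a UMI of the 9. The plasma cell list stood at 27.1 and 316.03 CPM and the myeloid list at 16.5 and 248.3 CPM, and no such list was higher in cells with. The values recomputed without cells of other types, given below, did not include Cd74, Lyz1 and Jchain. The part of such cells in the ratios of Cd74, Lyz1 and Jchain was therefore not tested. Of the effector list, 5 of 10 measured genes were at least 1.5-fold lower and none higher, with a median log2 ratio of -0.70 against -0.04 for all genes. Of 14 naive genes, none passed 1.5-fold in either direction, and the median was 0.03.

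The remaining question is which Treg cells still carried the 9 genes. Of the 60 thinned Treg cells with a UMI of the 9, 15 had 0 UMIs of a 20-gene Treg signature (25%, 14.7% to 37.9%), against 80 of the cells without (11.8%, 9.47% to 14.5%). Their median was 1.5 signature UMIs, against 4 in cells without. Foxp3 itself was found in 28.3% (17.5% to 41.4%) of the cells with and 28.3% (24.95% to 31.9%) without. Among the 14 cells with Dapl1, 7 had 0 signature UMIs, and among the 37 with Igfbp4, 9 had 0. By signature UMIs of 0, 1 to 2, 3 to 5 and at least 6 (95 cells in the first), the 9 genes stood at 357.9, 182.3, 119.6 and 57.9 CPM in Treg, a log2 ratio of highest over lowest class of -2.63 (-3.64 to -1.69). Dapl1 had 1 UMI in the highest class and 14 in the lowest.

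Among cells with 0 signature UMIs, Treg held 357.9 CPM and Tconv 1457 CPM of the 9 genes, a log2 ratio of -2.03 (-2.56 to -1.54). In the same classes of naive UMIs the Treg over Tconv ratio was -3.90, -2.86, -2.95 and -3.04, and in those of effector UMIs -3.01, -2.96, -3.65 and -3.06. These ratios belong to the contrast on which the genes were chosen, so a lower Treg level in each class is no separate result. In Tconv, the 9 genes stood at 1457, 1219 and 964 CPM with 0, 1 to 2 and 3 to 5 signature UMIs, and 7 cells with at least 6 held 0 UMIs.

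Of 16 signature genes found in at least 20 Treg cells, 14 had a lower carrying share with than without the gene, 2 of them with intervals apart (Ikzf2 and Tnfrsf9), against 52.6% and 0.281% of 4273 genes (47.3% were higher, 0.351% with intervals apart). With cells thinned to 500 or 1500 UMIs, no signature gene had intervals apart. The carrying share was 1.92% (0.40% to 5.52%) in Treg cells with Ikzf2, the transcription factor Helios, and 9.79% (7.502% to 12.5%) in cells without it. It was 2.61% (0.54% to 7.43%) with the costimulatory receptor Tnfrsf4 and 9.15% (7.003% to 11.7%) without, where the intervals overlapped. None of 60 cells with Tnfrsf9, the receptor 4-1BB, carried a UMI of the 9, which allows up to 5%. Izumo1r, the folate receptor 4 of Treg, had 6.47% with and 9.81% without, Il2ra 5.81% and 8.83%, and Il2rb 6.36% and 8.67%, each within overlapping intervals. Gpr83, a G protein-coupled receptor, ran the other way at 10.7% with and 7.84% without, and Foxp3 itself had 8.13% in both. S1pr1, from the naive list, went the other way, with 14.9% (9.71% to 21.6%) of its cells carrying and 6.34% (4.50% to 8.63%) without.

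Over 2473 genes with at least 50 UMIs in thinned Treg cells, 13.2% were at least 1.5-fold higher and 26.2% at least 1.5-fold lower in cells with a UMI of the 9, with only 60 such cells. Of the signature, 9 of 14 measured genes were at least 1.5-fold lower and none higher, with a median log2 ratio, cells with over cells without, of -0.81 against -0.07 for all genes. Ikzf2 was at -2.88 (-5.17 to -1.32), and Id3, an inhibitor of DNA binding, at -2.69 (-4.57 to -1.32). Tnfrsf9 had 0 UMIs in cells with and 157.8 CPM in cells without, and Pa2g4 0 UMIs and 138.6 CPM. The higher genes were Arl4c, a small GTPase, at 1.67 (1.22 to 2.10), Vps26b at 2.16, Zmynd11 at 1.75 and Rfx1 at 1.98. In cells with a UMI of the 9, Vps26b held 15 UMIs in 6 cells and Rfx1 16 UMIs in 7 cells. No such ratio of single genes in Treg was recomputed with another thinning draw. Unthinned, 13 Treg cells with at least 5 UMIs of the 9 held 40.8% of all UMIs of the 9, and their median depth was 2159 UMIs. Cells with a UMI of the 9 had a median of 1980 UMIs and cells without 1649. In Treg the myeloid list stood at 533 CPM in cells with and 107.7 CPM in cells without a UMI of the 9. It was the only list of another cell type that was higher in cells with. The B cell list stood at 366.7 and 684.4 CPM and the plasmacytoid dendritic list at 216.7 and 286.1 CPM. Unthinned, 6 Treg cells had at least 3 myeloid UMIs, and 2 of them had a UMI of the 9. Of the 88 carrying Treg cells, unthinned, 8 had at least 3 UMIs of another type's list, as did 55 of the 728 others. Leaving out all such cells moved none of 62 recomputed values of both libraries beyond its counting interval or by over 1.5 times. Nme4 was not among them, since its only Treg cell was left out and Treg then held 0 UMIs, nor were Cd74, Lyz1 and Jchain. Some calls of intervals apart did change without these cells. Tnfrsf4 joined Ikzf2 and Tnfrsf9 in Treg, and in Tconv S100a11, Icos and the share of Dapl1 by Igfbp4 were no longer apart.

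The measured relatives and pathway partners of the 9 genes lay near the background of all genes. No other Igfbp or Lypd gene of the lists reached the minimum of 20 UMIs. For Igfbp4 only Igf1r, Igf2r and Insr were measured, and for Lypd6b only Ly6 genes. Of 62 measured relatives from 8 lists, none was at least 4-fold lower in Treg, 1 was at least 2-fold lower and 7 were at least 2-fold higher, with a median log2 ratio of 0.13. Of all 8988 genes, 0.701% were at least 4-fold lower, 3.6% at least 2-fold lower and 8.61% at least 2-fold higher, with a median of 0.14. Pdlim5, a PDZ and LIM relative of Pdlim4, was the one lower gene, at -1.34 (-2.03 to -0.70). For Igfbp4, the receptors Igf1r and Igf2r went the other way, at 1.65 (1.24 to 2.08) and 1.85 (1.54 to 2.17). Igf1r stood at 109.7 CPM in Treg and 34.95 CPM in Tconv. For Sgk1, the related kinase Sgk3 was at 0.15 (-0.39 to 0.68) and Akt1 at -0.02 (-0.29 to 0.25), while Ndrg1, a known target of Sgk1 phosphorylation, was at 1.68 (0.95 to 2.45). For Dapl1, Dap was at -0.73 (-1.06 to -0.41). Nme1 and Nme2, the cytosolic kinases related to Nme4, were at -0.06 and -0.25. Nacc1 was at 0.07, and Hdac1 of the NuRD complex at 0.88 (0.63 to 1.13). Arhgap30 and Rap1b were at 0.35 and -0.16, and Ly6a and Ly6e at 0.07 and 1.11.

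**Figure D5:**
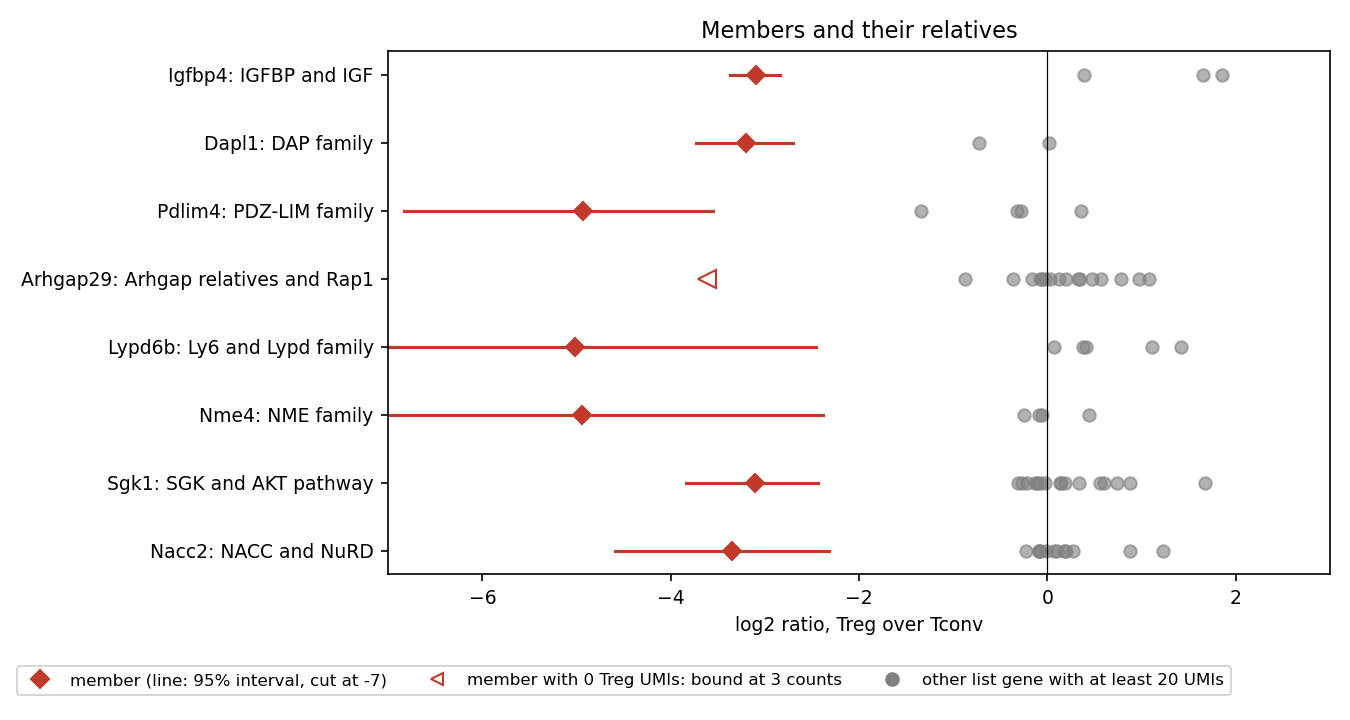
Log2 ratio of Treg over Tconv for 8 of the 9 genes (red diamonds with 95% intervals cut at -7; an open triangle is the bound for Arhgap29 at 0 Treg UMIs) and for the other genes of each family or pathway list with at least 20 UMIs (grey). The red symbols lie below all 62 grey ones, the lowest of which is Pdlim5 at -1.34. The red genes were chosen on this same ratio, so their place is no separate result.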

How the data were processed

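The deposited table holds raw UMI counts per gene and cell, from inDrops libraries primed with oligo dT, per the labels' protocols. TopHat2, SAMtools and mm10 are named in the submitters' processing notes. Which annotation and UMI counter served, and how cells were filtered, is not given in the sources used here.

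UMIs were summed per library (CPM, per 1000000 UMIs), with exact Poisson, conditional and Clopper-Pearson intervals at 95%. A library at 0 was set to 3 counts. For shares and classes, cells were thinned to 1000 UMIs, which left 738 Treg and 1108 Tconv cells. No doublets were called; cells above 2 times the median UMIs were left out as an alternative. Each group is 1 library, so no p-value was computed. Python 3.11.15, scipy 1.17.1, pandas 2.3.3 and edgeR 4.0.16 (TMM factors only) were used, and the computations were tested on simulated data.

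The 9 genes and the gene lists were chosen with earlier results of these data known. Named genes were the 9, the 6 (Tconv) and 4 (Treg) in each direction with the interval bound farthest from 1, up to 4 per list by summed UMIs, and family genes. Ahnak, Maf, Icos and Tnfrsf4 were named after their values were seen. 1 gene of the naive list is not reported here by name.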

Additional observations from a re-analysis of the deposited data

How the results depend on the processing

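No paired analysis was possible because the numbers in the titles count cells of different libraries and not replicates. For 65 results recomputed under other settings, 73 values left the counting interval of the value reported (for shares of genes, by over 1.5 times), 3 more reversed and the others stayed within it. The Treg over Tconv ratio of all 9 genes ranged from -3.38 to -3.19 over the other scalings and cell filters, and Nme4, with 1 Treg UMI, from -6.61 to -4.94. Both cell filters left out the only Treg cell with Nme4, which was then at least 9.64-fold lower against 3 counts. The recomputed shares by single effector and signature genes and the matched classes were chosen after seeing the data. Within matched classes, the ratio of all 9 was -3.90, -2.86 and -2.95 for 0 to 2, 3 to 4 and 5 to 6 naive UMIs, -3.01, -2.96 and -3.65 for 0, 1 to 2 and 3 to 5 effector UMIs and -2.03 for 0 signature UMIs. Without Igfbp4 it was -3.00 and -2.49 for 3 to 4 and 5 to 6 naive UMIs, -2.88, -3.07 and -2.79 for 0, 1 to 2 and at least 6 effector UMIs and -1.64 for 0 signature UMIs. Counting every gene with a UMI, 1.1% were at least 4-fold lower in Treg. Igfbp4 was in 29.8% of cells with and 23.3% without Dapl1 at 500 UMIs, and in 56.9% and 50.1% at 1500. The ratio of effector classes was -0.040 at 1500 UMIs and -0.075 with at least 4 UMIs (-0.25 without Igfbp4); Igfbp4 alone reversed to 0.13 and 0.045, and Sgk1 to 0.55 at 1500. The ratio of naive classes was 0.52 at 1500 UMIs with and 0.52 without Igfbp4, and 1.03 in Treg cells, where it was 0.06 without Igfbp4. The share of Treg cells with 0 signature UMIs was 43.6% with and 28.8% without a UMI of the 9 at 500 UMIs, 6.11% without at 1500, and 15.5% without when Foxp3 left the signature. At 1500 UMIs and without Foxp3, the share in cells with a UMI of the 9 stayed within its counting interval of 14.7% to 37.9%. In Tconv cells with a UMI of the 9, 6.53% of genes were higher at 1500 UMIs, and 9.77% were higher and 12.4% lower with a minimum of 20 UMIs, while at 500 UMIs 78 of 1931 genes (4.04%) were higher. These results were set as shares of the genes tested after the counts had been seen; as counts, those at 500 UMIs would have moved by over 1.5 times. At fewer UMIs per cell, shares of cells with a UMI fall and shares with 0 rise by design. The class limits were the same at each depth, so the classes at 500 and 1500 UMIs hold other cells. Lower minimums admit more genes. The cause of the shifts was otherwise not tested. Counting error, 1 library per group and 60 carrying Treg cells limit all values.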
